A study of Mus musculus with 6 samples.

Results

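This account concerns 10 tetraspanin genes measured by bulk RNA sequencing in mouse cells labelled as T cells: Cd82, Cd53, Cd37, Cd151, Cd81, Cd9, Cd63, Tspan3, Tspan31 and Tspan32. They were picked by symbol out of the 55401 genes of the count table. They were chosen with the contrast described here already known, in particular the rise of Cd82, so their values in that contrast are given as a description. Where a member is said to pass or miss the threshold, this is part of the description and is not used as support. All 10 were in the table, and 8 passed the filter on low counts that left 14082 genes to be tested. In NFL libraries Cd82 was 1.65-fold higher and Cd53 was at 0.681 of its control level, while Cd37, Cd151, Tspan3 and Tspan31 stayed within 1.2-fold of control and Cd81, Cd63, Tspan32 and Cd9 were barely expressed.

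Both groups were labelled as T cells grown in macrophage supernatant. The control group (3 libraries) received supernatant of untreated macrophages, and the NFL group (3 libraries) received supernatant of macrophages that had been exposed to 5 µg/mL NF-L for 24 h. NF-L, or NFL, is neurofilament light chain, a structural protein of axons. The sources differ on the reagent: the design text describes it as made from freeze-thawed sciatic nerve at the dose given above, while the methods of the paper list a purchased NFL protein, a separate nerve lysate and lower doses on cultured cells, and which was used for these libraries was not settled. In both groups the macrophages were grown from CD11b+ spleen monocytes in 50 ng/mL M-CSF over 7 days, the supernatant was filtered and made up 50% of a medium with 2% FBS, and the T cells came from spleen through magnetic selection on CD8a. The methods name female C57BL/6 mice among those of the study, but the labels do not say which mice gave these spleens, nor whether the 3 libraries of a group came from separate animals or cultures, so the errors and p-values below measure the spread between these libraries, which may be technical.

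Tetraspanins are small proteins that cross the membrane with 4 helices and gather integrins, immunoglobulin-domain proteins, proteases and signalling enzymes into patches of the plasma membrane or of endosomes. Several also sort cargo into late endosomes and extracellular vesicles. In lymphocytes, Cd82, Cd53, Cd37 and Cd81 are known for their links to adhesion, costimulation and antigen presentation. Since the samples were bulk RNA, fewer cells that express a gene and less of its RNA per cell cannot be told apart.

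Total counts ran from 15843045 to 24639756 in the control libraries and from 16190568 to 17796228 in the NFL libraries. Levels are given in CPM, read counts scaled to a common library size by TMM. A gene with 3 counts, taken as the floor, stood at 0.122 to 0.189 CPM by library total without TMM, and this floor covers counting error alone. Across all genes 986 of 14082 (7.00%) passed an adjusted p of 0.05 in edgeR's quasi-likelihood test, 489 higher (3.47%) and 497 lower (3.53%); with library size alone as the scaling the split was 372 higher and 600 lower. The groups did not overlap at 22.7% of the genes tested. The mitochondrial share of counts was 1.65 to 1.77% in control and 1.54 to 1.60% in NFL libraries, without overlap, and its part in the values below was not tested.

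The cell label was checked against marker genes. Of 11 T cell markers, Thy1 stood at 1575 to 1709 CPM, whereas the signalling genes Cd3d, Cd3g and Lck stood at 2.32 to 4.83, 6.05 to 8.86 and 3.67 to 5.90 CPM, the T cell receptor constant gene Trac at 0.994 to 2.50 CPM, and Cd2 and Cd5 had 0 counts in all 6 libraries. Cd3e was lower in NFL libraries, at 62.1, 64.6 and 56.4 CPM in control and 50.6, 49.1 and 50.8 CPM in NFL libraries (log2 fold change -0.28, SE 0.056, edgeR adjusted p = 0.000572), and its part in the values below was not tested. Cd8a, the protein used for the selection, stood at only 3.20 to 4.46 CPM, Cd8b1 at 0.870 to 1.57 CPM and Cd4 at 23.3 to 27.6 CPM. The summed level of the list was 1725 to 1821 CPM in control and 1672 to 1769 CPM in NFL libraries, almost wholly Thy1. Absent Cd2 and Cd5 and low Cd8a, Cd8b1 and Trac go against the label of CD8a-selected T cells, and the libraries are named below by their group alone. Of 11 macrophage and monocyte markers, 9 had at most 3 counts in every library, Adgre1 reached 5 counts, and C1qa, C1qb, C1qc, Cd14, Itgam and Mrc1 were at 0. The summed level of that list was 24.6 to 27.5 CPM in control and 19.2 to 23.5 CPM in NFL libraries and came almost wholly from Cd68. The 8 B cell markers summed to 16.6 to 17.8 CPM in control and 17.9 to 19.7 CPM in NFL libraries. Most of this came from Pax5, at 8.97 to 10.6 CPM in control and 8.57 to 10.6 CPM in NFL libraries. Cr2 followed at 3.33 to 5.73 CPM in control and 5.61 to 6.27 CPM in NFL libraries, while Ms4a1 and Ighm were at 0. Of 4 natural killer cell markers Ncr1 and Klra8 were at 0, Eomes stood at 418.8 to 449.9 CPM, and Klrb1c was lower in NFL libraries (log2 fold change -0.51). Markers of dendritic cells, neutrophils and erythroid cells summed to at most 1.99 CPM in any library, and those of platelets to 7.03 to 8.01 CPM, almost wholly Itga2b.

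Cd82, also called KAI1, is a leukocyte tetraspanin and a known suppressor of metastasis. It lies on the minus strand of chromosome 2 at 93419111 to 93463140 (GRCm38, GENCODE M21). Its promoter windows are shown beside that of Cd53, since these genes moved in opposite directions. RefSeq (GRCm38.p6) gives Cd82 4 start sites, and the windows of 2 are printed, which are also the 2 richest in G or C. Each runs from 250 bases before to 50 bases after the start on the minus strand, at chr2:93462901-93463200, chr2:93462453-93462752 and, for Cd53, chr3:106790100-106790399, and capitals mark GGGCGG (the GC box) and CCAAT on either strand.
Cd82 window 1: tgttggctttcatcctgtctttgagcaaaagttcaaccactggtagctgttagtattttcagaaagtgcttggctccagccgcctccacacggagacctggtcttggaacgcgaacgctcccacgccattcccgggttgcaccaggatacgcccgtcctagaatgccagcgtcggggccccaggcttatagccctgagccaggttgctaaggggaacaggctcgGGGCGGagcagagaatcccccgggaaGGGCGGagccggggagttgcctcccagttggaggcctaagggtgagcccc
Cd82 window 2: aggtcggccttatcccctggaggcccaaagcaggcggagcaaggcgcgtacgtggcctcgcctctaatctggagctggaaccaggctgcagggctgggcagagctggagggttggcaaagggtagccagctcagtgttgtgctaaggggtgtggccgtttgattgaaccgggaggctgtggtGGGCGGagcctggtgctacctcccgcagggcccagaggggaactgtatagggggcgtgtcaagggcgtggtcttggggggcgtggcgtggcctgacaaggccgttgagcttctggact
Cd53: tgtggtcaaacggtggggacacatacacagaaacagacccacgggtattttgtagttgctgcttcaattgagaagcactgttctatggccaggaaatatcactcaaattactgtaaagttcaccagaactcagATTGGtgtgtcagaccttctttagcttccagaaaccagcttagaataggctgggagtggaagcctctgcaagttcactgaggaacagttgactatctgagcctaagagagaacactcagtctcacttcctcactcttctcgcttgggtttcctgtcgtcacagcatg
The Cd82 windows were 60.7% and 64.7% G or C with 16 and 15 CpG, whereas the Cd53 window was 46.3% G or C with 4 CpG, beside medians of 52.7% and 7 CpG over 32851 RefSeq promoters. The other 2 Cd82 windows were closer to that of Cd53, with 49.3% and 53.0% G or C and 11 and 4 CpG. Windows of the other members ran from 48.3% G or C (Tspan31) to 65.7% (Cd81) and from 2 CpG (Tspan32) to 23 (Cd81). Among them a Cd151 window had 64.3% and the Cd9 window 61.3% G or C, so a G- or C-rich window was not particular to Cd82. GGGCGG occurred 2 times and 1 time in the printed Cd82 windows and not in the other 2 or in the Cd53 window, and 35.7% of all promoters hold it. It also occurred 3 times in the Cd81 window, 2 times in a Cd151 window and in the Cd9 window, and 1 time in the Cd37 window. CCAAT occurred 1 time in the Cd53 window and 1 time in an unprinted Cd82 window, both on the opposite strand, and 37.4% of all promoters hold it. The NF-kB consensus (8.46% of promoters), TGANTCA (AP-1 type, 7.81%) and TATAAA (13.6%) had no match in the windows of Cd82 and Cd53. Looser forms of the NF-kB consensus were tried before it and had matched a Cd82 window, so its absence depends on the form chosen. Among the other members, a Cd151 window matched the NF-kB consensus and the Cd81 window matched TATAAA. These letter matches describe the windows and are not evidence of a bound site.

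In the control libraries Cd82 stood at 74.9, 75.8 and 69.0 CPM, and in the NFL libraries at 120.6, 120.4 and 121.4 CPM. All 3 NFL libraries were above every control library, and they lay closer to each other than the controls did. The means were 73.2 ± 3.66 CPM and 120.8 ± 0.526 CPM (SD, n = 3), a log2 fold change of 0.73 (SE 0.044). Of 8763 genes with a mean of at least 10 CPM, 7 had a larger rise. The value rested on 1207 to 2144 counts per library and stayed between 0.68 and 0.75 under 14 other settings.

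Cd53, a tetraspanin found on nearly all leukocytes, moved the other way. It lies on the minus strand of chromosome 3 at 106759921 to 106790149 and has 1 annotated transcript. It stood at 75.1, 77.1 and 73.6 CPM in the control libraries and at 49.5, 52.0 and 52.3 CPM in the NFL libraries. All 3 NFL libraries were below every control library. The means were 75.3 ± 1.77 CPM and 51.3 ± 1.57 CPM (SD, n = 3), a log2 fold change of -0.55 (SE 0.052), and 9 of the 8763 genes had a larger fall. The counts behind it were 796 to 1847 per library, and the change lay between -0.57 and -0.53 under the 14 settings.

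Among the members, 1 passed the threshold as higher (background 3.47%) and 1 as lower (background 3.53%), 6 of the 8 tested did not pass, and 3 had groups without overlap (background 22.7%); since the members were chosen on this contrast, nothing is read from these counts. The median log2 fold change of the 8 was -0.13 beside -0.001 over all genes tested.

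**Figure D1:**
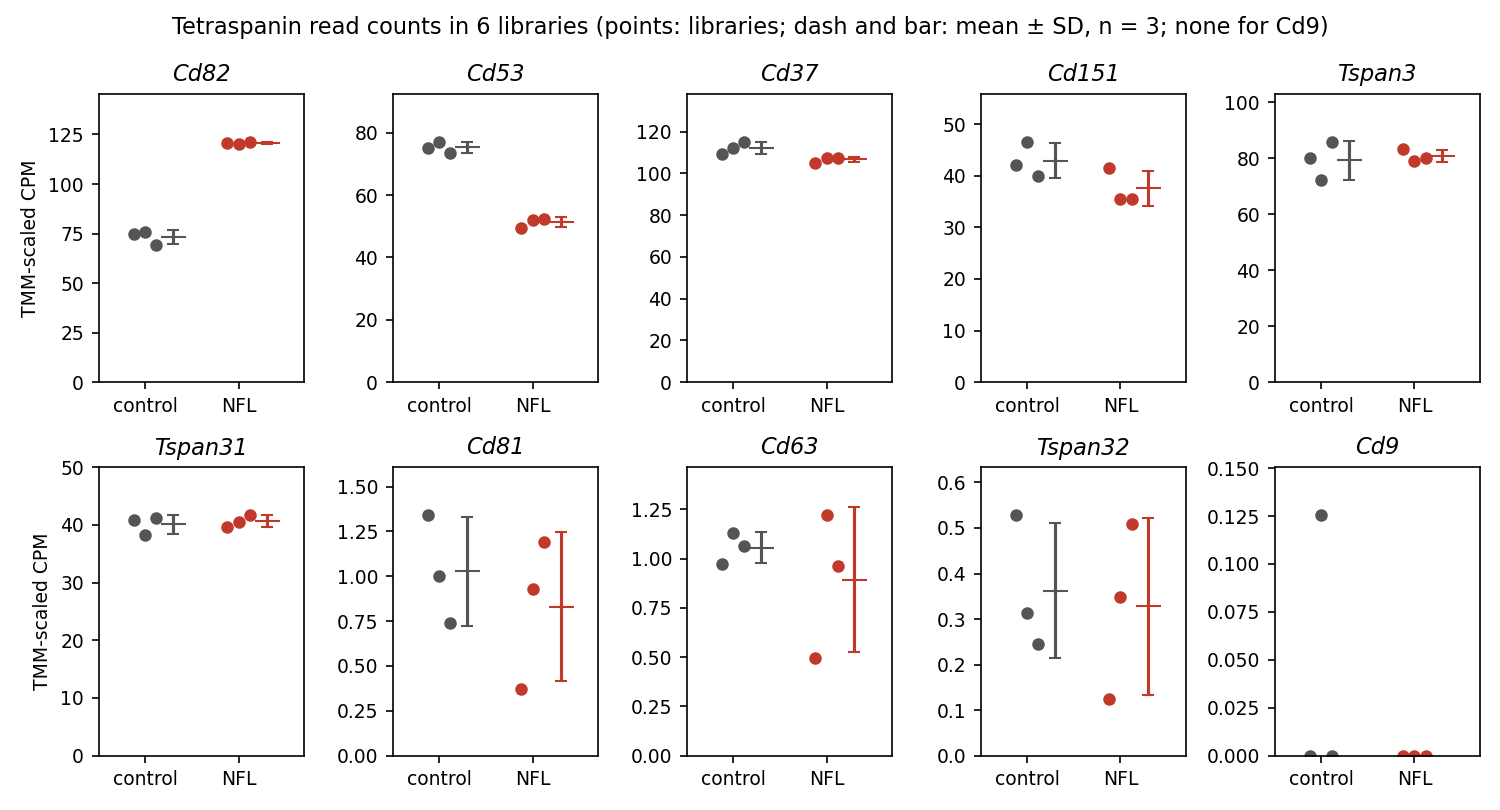
Level of each tetraspanin in TMM-scaled CPM on the vertical axis, from 0 and with its own scale per gene, in 3 control (grey) and 3 NFL (red) libraries, with the mean and SD beside the points. Cd82 sits at 69.0 to 75.8 CPM in control and 120.4 to 121.4 CPM in NFL libraries, and Cd53 at 73.6 to 77.1 and 49.5 to 52.3 CPM. The 4 panels at the lower right (Cd81, Cd63, Tspan32 and Cd9) reach at most 1.34 CPM.

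Cd37, a leukocyte tetraspanin best known from B cells, stood at 109.2, 112.0 and 115.2 CPM in control and at 105.1, 107.5 and 107.3 CPM in NFL libraries. The NFL libraries were all below the controls, but by little: the log2 fold change was -0.07 (SE 0.040), and it did not pass the threshold. Its gene, on the minus strand of chromosome 7 at 45233632 to 45239115, shares 13 exonic bases with Tead2 on the other strand, or 0.4% of its exons.

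Cd151, the tetraspanin bound most tightly to laminin-binding integrins, stood at 42.1, 46.6 and 40.0 CPM in control and at 41.6, 35.6 and 35.5 CPM in NFL libraries. The groups overlapped because NFL replicate 1 lay among the controls. The log2 fold change was -0.19 (SE 0.068) and missed the threshold in the fit of all libraries, whereas it was -0.24 without control replicate 3 and -0.26 without NFL replicate 1, both past it. A transcript on the opposite strand, Gm10575, covers 193 bases or 7.0% of its exons and had 5 to 23 counts per library.

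Tspan3, a widely expressed member, stood at 80.0, 72.1 and 85.9 CPM in control and at 83.3, 79.1 and 80.1 CPM in NFL libraries, with a log2 fold change of 0.02 (SE 0.050). The NFL values lay inside the control range. Tspan31 stood at 40.8, 38.2 and 41.1 CPM in control and at 39.6, 40.5 and 41.7 CPM in NFL libraries, with a log2 fold change of 0.02 (SE 0.062). The groups overlapped here too. Reads of Tspan31 are uncertain, since Cdk4, the cyclin-dependent kinase gene on the opposite strand, covers 641 bases or 29.2% of its exons and the use of strand in counting is not given in the sources used here. Cdk4 itself stood at 110.4 ± 7.12 CPM in control and 114.2 ± 4.12 CPM in NFL libraries (SD, n = 3), with a log2 fold change of 0.04 that did not pass the threshold (edgeR adjusted p = 0.652).

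The remaining members were scarce. Cd81, a widely expressed tetraspanin of the lymphocyte surface, had 33, 16 and 18 counts in control and 6, 16 and 21 counts in NFL libraries. Cd63, the tetraspanin of late endosomes and a common vesicle marker, had 24, 18 and 26 counts in control and 8, 21 and 17 counts in NFL libraries. For both genes NFL replicate 1 was the lowest library and the groups overlapped. Their log2 fold changes of -0.29 (SE 0.41) for Cd81 and -0.22 (SE 0.391) for Cd63 had errors larger than the change, so a difference was not detectable with these counts. Tspan32, a blood cell tetraspanin also known as Tssc6, had 13, 5 and 6 counts in control and 2, 6 and 9 counts in NFL libraries and was not tested. Cd9, a broadly expressed member used as a vesicle marker, had 2 counts in control replicate 2 and 0 in the other libraries, all under the floor, and was not tested.

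Levels of the members were set against each other per kilobase of annotated exon. In control libraries the order was Cd53 at 43.2 ± 1.02, Cd37 at 31.8 ± 0.859, Cd82 at 24.4 ± 1.22, Tspan3 at 18.6 ± 1.63, Tspan31 at 18.3 ± 0.733 and Cd151 at 15.7 ± 1.24 CPM per kilobase (SD, n = 3). Only Tspan3 and Tspan31 overlapped among these neighbours. In NFL libraries Cd82 was first at 40.2 ± 0.175, followed by Cd37 at 30.3 ± 0.379 and Cd53 at 29.4 ± 0.900, whose libraries overlapped, and then by Tspan3 at 18.9 ± 0.518, Tspan31 at 18.5 ± 0.470 and Cd151 at 13.7 ± 1.27 CPM per kilobase. Tspan3 and Tspan31 overlapped again. Cd81 and Cd63 followed at 0.357 and 0.287 CPM per kilobase in control and at 0.289 and 0.243 in NFL libraries, also overlapping, and Tspan32 and Cd9 came last. With coding length in place of exon length Cd82 again went from position 3 to position 1, while Cd53 went from position 1 to position 4.

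Per kilobase of exon the rise of Cd82 and the fall of Cd53 were of similar size, but not per kilobase of coding length, where Cd82 went from 91.3 to 150.7 and Cd53 from 114.6 to 78.0. The summed level of the 10 genes was 152.5, 153.3 and 152.0 CPM per kilobase in control and 151.4, 151.1 and 152.3 in NFL libraries, and these groups overlapped. Within that sum the share of Cd82 went from a mean of 16.0% to 26.5% and the share of Cd53 from 28.3% to 19.4%. Without length correction the sum was 425.4 ± 1.40 CPM in control and 439.8 ± 1.82 CPM in NFL libraries, and without Cd82 and Cd53 it was 276.9 ± 6.67 and 267.7 ± 2.73 CPM (SD, n = 3). Per kilobase of coding length it was 517.2, 517.8 and 516.1 in control and 529.4, 526.9 and 531.2 in NFL libraries, without overlap, so the near equality holds per kilobase of exon alone.

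**Figure D2:**
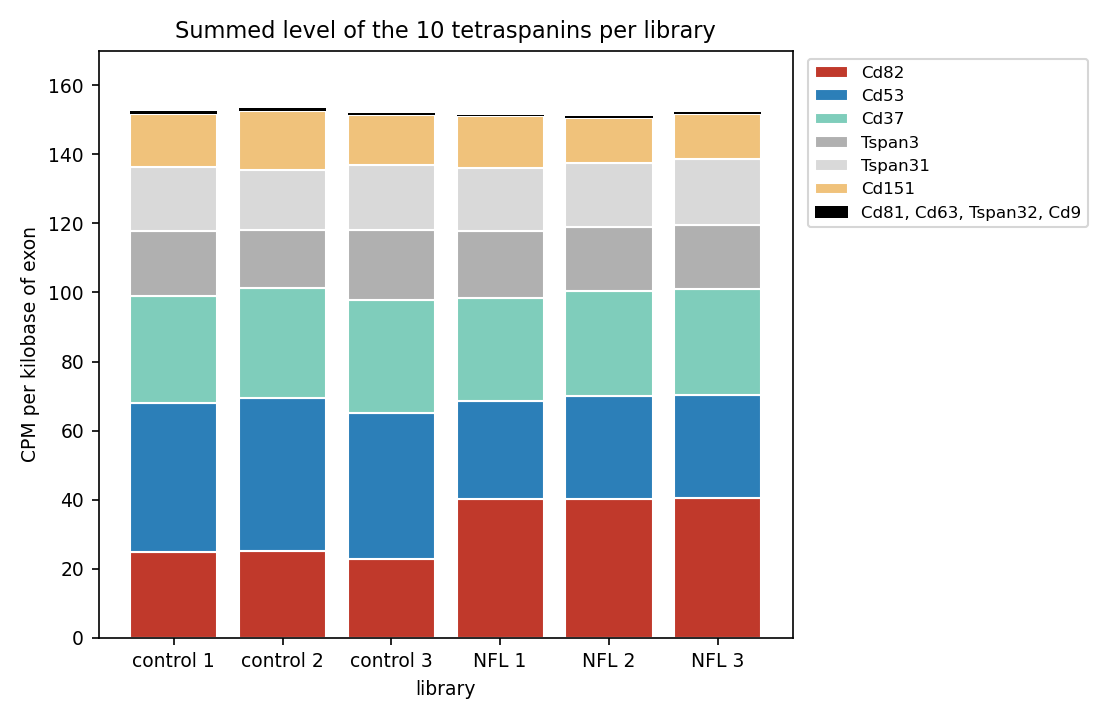
Stacked CPM per kilobase of exon (vertical axis, from 0) of the 10 tetraspanins in each of the 6 libraries. The columns reach 151.1 to 153.3 in both groups, with a taller Cd82 block (26.5% against 16.0% on average) and a shorter Cd53 block (19.4% against 28.3%) in NFL libraries.

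Of the 21 other tetraspanins of the mouse, 7 could be tested and 10 had at most 3 counts in every library. None was higher and 1 was lower, beside backgrounds of 3.47% and 3.53%. That gene, Tspan13, stood at 93.0, 94.5 and 91.8 CPM in control and at 86.1, 83.5 and 84.2 CPM in NFL libraries. The groups did not overlap, but the difference was small: the log2 fold change was -0.14 (SE 0.044, edgeR adjusted p = 0.0431), and it passed the threshold in only 5 of 14 other settings and in none that left out a library. Tspan14, one of the tetraspanins that carry the protease Adam10 to the surface, stood at 39.4 to 41.6 CPM in control and 40.1 to 43.1 CPM in NFL libraries (log2 fold change 0.05, SE 0.062, edgeR adjusted p = 0.732). Tspan4 stood at 25.2 to 26.7 CPM in control and 23.3 to 26.9 CPM in NFL libraries (log2 fold change -0.04, SE 0.078, edgeR adjusted p = 0.869). The median over the 7 was -0.04 beside -0.001 over all genes.

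**Figure D3:**
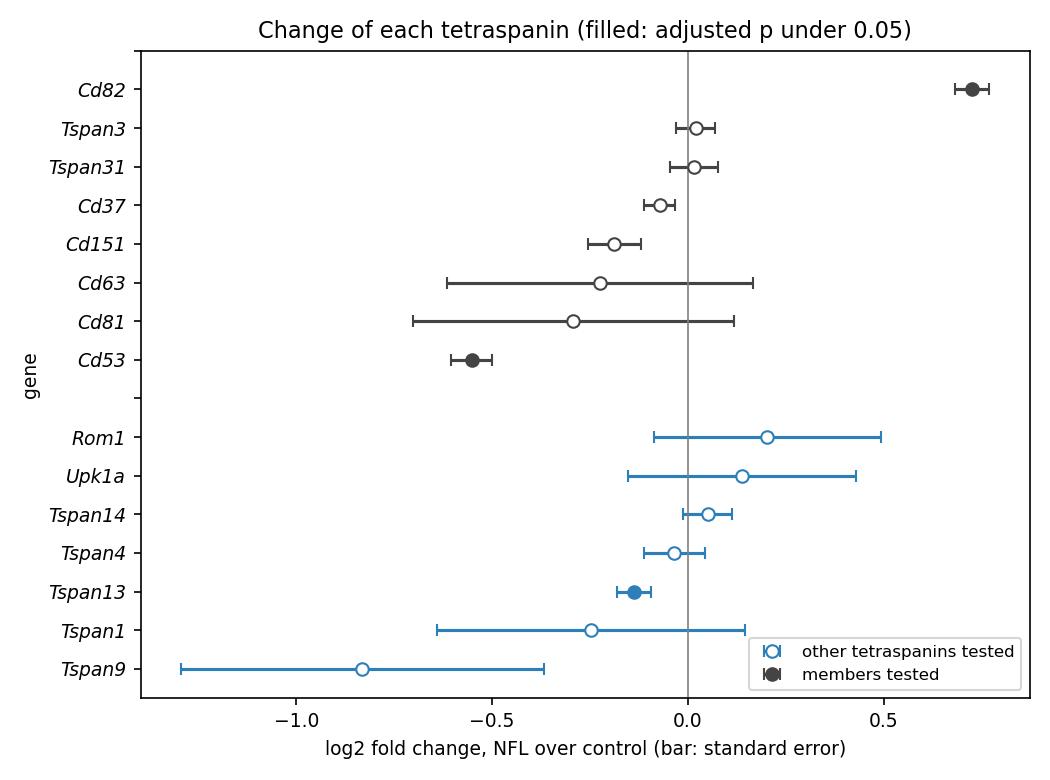
Log2 fold change of NFL over control (horizontal axis) with its standard error for the 8 members tested (dark) and the 7 other tetraspanins tested (blue), filled where the adjusted p was under 0.05. Cd82 at 0.73 and Cd53 at -0.55 lie apart from the other well-expressed genes, and the wide bars belong to genes with few counts.

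Proteins known to bind, modify or travel with tetraspanins were described from 7 lists of 99 genes, 80 of which were tested. Of these 1 was higher and 13 were lower, 17.5% in all beside the background of 7.00%. Most had high counts, and among the 67 with a mean of at least 10 CPM the share was 20.9% beside 10.3% of all such genes; for those lower it was 19.4% beside 5.09%. The median log2 fold change over the 80 was -0.04 beside -0.001. The lists were chosen with earlier results of these data known, and the lower genes include Ifitm1, Ifitm2 and Ifitm3, which can share reads. Nothing is therefore read from these shares, nor from the counts of single lists below. The number called was 8 without NFL replicate 2 or without NFL replicate 3 and 9 without control replicate 1, and 6 of the 14 genes passed in each of the 14 other settings.

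Integrins, the adhesion receptors that Cd151, Cd82 and Cd9 bind, had 2 of 10 tested genes lower (background 3.53%) and none higher (background 3.47%). Itgav, the alpha-v chain, stood at 414.1, 414.7 and 409.5 CPM in control and at 368.5, 371.4 and 360.6 CPM in NFL libraries (log2 fold change -0.17, SE 0.029, edgeR adjusted p = 4.4e-05). Itgb3, the beta-3 chain that pairs with it, stood at 12.3 ± 0.958 CPM in control and 9.11 ± 0.135 CPM in NFL libraries (SD, n = 3), a log2 fold change of -0.44 (edgeR adjusted p = 0.0101) that missed the threshold without control replicate 1 (0.0864). For both chains all NFL libraries were below all control libraries. The integrin chains with the most counts did not pass: Itgb1 had a log2 fold change of -0.03 (edgeR adjusted p = 0.589) and Itgal, of the lymphocyte integrin LFA-1, one of 0.01 (edgeR adjusted p = 0.937). The laminin-binding chain Itga6 stood at 290.4 to 299.0 CPM in control and 277.2 to 297.9 CPM in NFL libraries, while Itga3 had at most 1 count.

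Of the surface partners with immunoglobulin or other domains, 14 of 24 were tested, 1 was higher (background 3.47%) and 4 were lower (background 3.53%). Icam1, the ligand of LFA-1, stood at 56.7, 57.6 and 55.7 CPM in control and at 76.4, 73.1 and 73.2 CPM in NFL libraries (log2 fold change 0.39, SE 0.050, edgeR adjusted p = 1.05e-07). Ifitm1, an interferon-inducible protein found with Cd81, stood at 1910, 1711 and 1768 CPM in control and at 1464, 1400 and 1412 CPM in NFL libraries (log2 fold change -0.33, SE 0.029, edgeR adjusted p = 5.27e-13). Its neighbours in the family, Ifitm2 at -0.21 (edgeR adjusted p = 0.000124) and Ifitm3 at -0.17 (edgeR adjusted p = 0.000119), were lower too, with the caution that these similar genes can share reads. Cd47, the ligand of the phagocyte receptor SIRP-alpha, had a log2 fold change of -0.11 (edgeR adjusted p = 0.00508) and missed the threshold without NFL replicate 2 (0.0742) or NFL replicate 3 (0.0599). Tfrc, the transferrin receptor, had one of 0.05 (edgeR adjusted p = 0.289). Igsf8, a direct partner of Cd9 and Cd81, stood at 76.4 to 85.2 CPM in control and 79.6 to 83.7 CPM in NFL libraries.

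None of the 4 metalloproteases and substrates tested passed by edgeR, by DESeq2 or by limma-voom, and 0 had an unadjusted p under 0.05. Adam10, the sheddase that several tetraspanins escort, had a log2 fold change of -0.04 (edgeR adjusted p = 0.516) at 240.5 to 256.2 CPM in control and 235.3 to 243.2 CPM in NFL libraries, and Adam17 one of -0.03 (edgeR adjusted p = 0.835). Likewise 0 of the 11 palmitoyl transferases and ubiquitin ligases tested passed by any of these tools, and 0 had an unadjusted p under 0.05. This list holds enzymes that add palmitate to proteins such as tetraspanins and ligases that mark membrane proteins for degradation. Its genes with the most counts, Nedd4 and Zdhhc2, had log2 fold changes of -0.05 (edgeR adjusted p = 0.395) and -0.01 (edgeR adjusted p = 0.937).

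Endosome and vesicle genes had 3 of 21 tested genes lower (background 3.53%) and none higher (background 3.47%). Rab27a and Rab27b, the small GTPases that bring vesicles to the membrane for release, had log2 fold changes of -0.14 (edgeR adjusted p = 0.0113) and -0.18 (edgeR adjusted p = 0.0124), past the threshold in 11 and 12 of the 14 other settings. Both lost their call without NFL replicate 2 (edgeR adjusted p = 0.0828 and 0.130) and without NFL replicate 3 (0.0545 and 0.0657), and Rab27a also without control replicate 1 (0.0614). Anxa2, a membrane-binding annexin, had one of -0.14 (edgeR adjusted p = 0.0367) and passed in 7 of the 14 other settings. Among the genes with the most counts, Rab7 and Arf6 had log2 fold changes of -0.04 (edgeR adjusted p = 0.609) and -0.06 (edgeR adjusted p = 0.303).

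Lysosome genes had 3 of 11 tested genes lower (background 3.53%) and none higher (background 3.47%). Laptm5, a lysosomal protein of blood cells, stood at 205.4, 204.3 and 192.9 CPM in control and at 174.9, 178.6 and 182.2 CPM in NFL libraries (log2 fold change -0.17, edgeR adjusted p = 0.000672). The protease Ctsd had a log2 fold change of -0.19 (edgeR adjusted p = 0.00487) and missed the threshold without NFL replicate 3 (0.115). Cd68, which is also on the macrophage list, had one of -0.26 (edgeR adjusted p = 0.0494) and passed in 8 of the 14 other settings. The main membrane glycoproteins Lamp1 and Lamp2 did not pass, at -0.02 (edgeR adjusted p = 0.722) and -0.05 (edgeR adjusted p = 0.406). Of 9 cytoskeletal and kinase partners tested, 1 was lower (background 3.53%). This was Prkca, a protein kinase C that tetraspanins recruit, at -0.14 (edgeR adjusted p = 0.0482), past the threshold in 5 of the 14 other settings. Msn and Ywhaz, which had the most counts of that list, had log2 fold changes of -0.01 (edgeR adjusted p = 0.914) and -0.04 (edgeR adjusted p = 0.492).

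**Figure D4:**
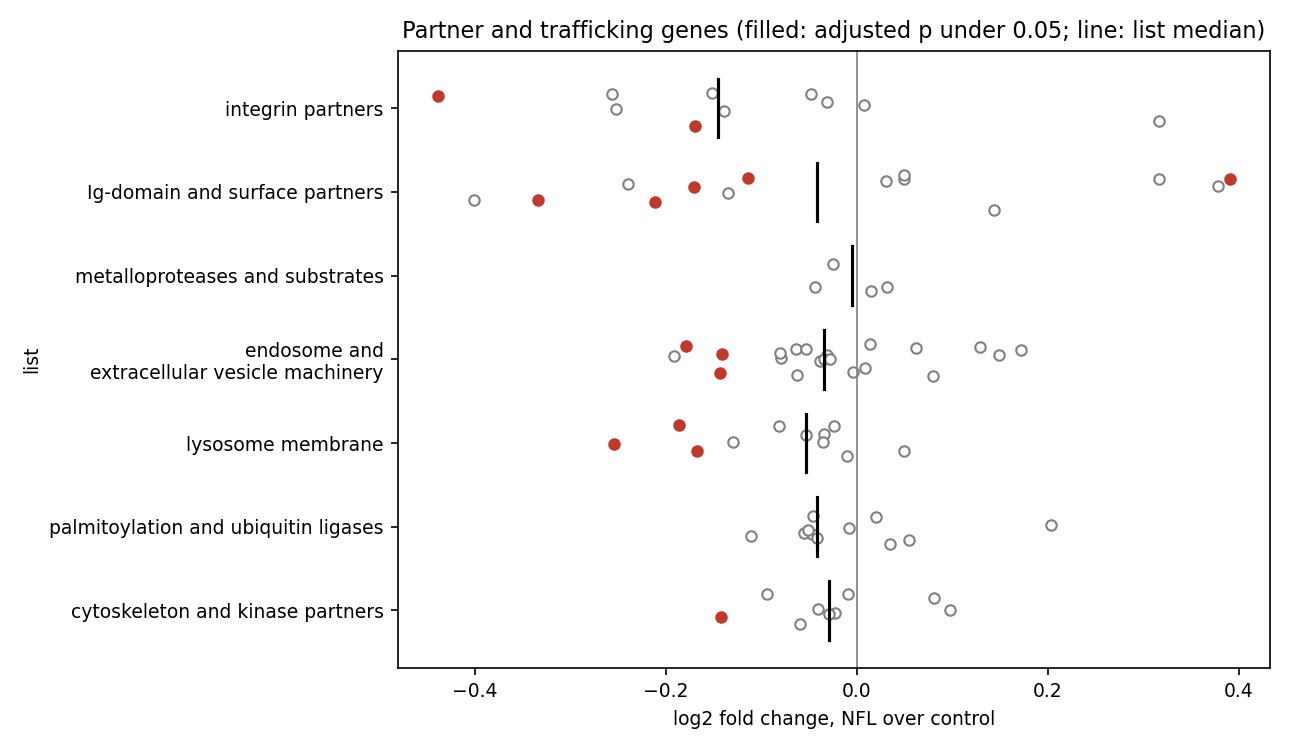
Log2 fold change of NFL over control (horizontal axis) for each tested gene of the 7 partner and trafficking lists, 1 row per list, with the list median as a black line and genes with an adjusted p under 0.05 filled in red. The 13 filled points left of 0 include Itgb3 at -0.44 and Ifitm1 at -0.33, and the only filled point to the right is Icam1 at 0.39.

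Around Cd82, 8 genes of the count table lie within 250 kb and 4 were tested. By edgeR 0 passed, 1 had an unadjusted p under 0.05, and limma-voom called 1 and DESeq2 0. Ext2, a heparan sulfate polymerase, and Trp53i11 had log2 fold changes of -0.08 (edgeR adjusted p = 0.272) and -0.09 (edgeR adjusted p = 0.578), and Tspan18, another tetraspanin, had at most 2 counts. The exception by limma-voom was Gm10804, a long noncoding RNA on the strand opposite Cd82 that shares 0 exonic bases with it. Gm10804 had 2, 4 and 11 counts in control and 13, 13 and 15 counts in NFL libraries, with all NFL libraries above the controls. Its log2 fold change was 1.60 (SE 0.529, edgeR adjusted p = 0.0542), and without strand in the counting its few reads cannot be told apart from intronic reads of Cd82. The microRNA gene Mir7001, inside Cd82, had at most 5 counts. Of the genes that overlap other members, R74862 at Cd81 had at most 3 counts, Gm28809 at Cd9 had 6 to 15, Gm26728 at Cd9 and Tspan32os at Tspan32 had 0, and Tead2 at Cd37 had 34 to 77 counts (log2 fold change -0.24, edgeR adjusted p = 0.638). Cd81 and Tspan32 are neighbours on chromosome 7, 33.1 kb apart, and both were scarce in all 6 libraries.

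The genes whose log2 CPM followed Cd82 most closely over the 6 libraries, among 8762 others with a mean of at least 10 CPM, were Tnip1 (Pearson r = 0.998), Cd74 (r = 0.997), Junb (r = 0.996), Rpl9 (r = 0.996) and Gfm1 (r = 0.995). The 6 points fall into the control and NFL groups, so r mainly reflects the gap between them, and the genes were picked for this likeness. Tnip1, an inhibitor of NF-kB signalling, stood at 64.7, 62.5 and 59.4 CPM in control and at 96.7, 98.9 and 97.2 CPM in NFL libraries. Cd74, the invariant chain of MHC class II, stood at 88.4, 86.0 and 83.9 CPM in control and at 137.2, 135.5 and 135.5 CPM in NFL libraries. Junb, a subunit of the AP-1 transcription factor, stood at 30.5 ± 0.850 CPM in control and 43.7 ± 0.684 CPM in NFL libraries (SD, n = 3). The log2 fold changes were 0.65 for Tnip1, 0.66 for Cd74 and 0.52 for Junb, near that of Cd82, whereas Rpl9, a ribosomal protein gene whose reads can be shared with processed copies, and Gfm1, a mitochondrial elongation factor, followed the pattern with changes of only 0.11 and 0.15.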

How the data were processed

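RNA was measured in 6 libraries labelled as T cells, 3 control and 3 NFL. Libraries held poly(A) RNA. The authors deposited raw whole-number read counts per gene for 55401 genes, without normalization. The submitters' processing notes name GRCm39, R 4.2.1 and limma 3.54.2, while aligner, counter and strand setting are not given in the sources used here. The counts hold no coordinates, so those printed come from GENCODE M21 (GRCm38), for identifiers identical with their version (54349 genes, all 10 members), and nothing was converted between builds. Promoter sequences came from RefSeq (GRCm38.p6), which held all 10 members in 14 windows, 250 bases before to 50 after each start. The NF-kB consensus replaced looser forms tried before it, which had matched a Cd82 window.

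Genes were kept by filterByExpr (minimum count 10, minimum total count 15), scaled by TMM and fitted in R 4.3.3 by the quasi-likelihood functions of edgeR 4.0.16 (glmQLFit, glmQLFTest) with group as the only term, with Benjamini-Hochberg adjustment over the 14082 genes kept and a threshold of 0.05. CPM used TMM-scaled sizes over the kept genes, and SE was the absolute log2 fold change divided by the square root of F. Library totals ranged from 15843045 to 24639756, which puts 3 counts at 0.122 to 0.189 CPM without TMM scaling. An exact permutation test of 3 against 3 libraries cannot go below p = 0.1.

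Members and gene lists were chosen with earlier results of these data known. All members were named. Of the other tetraspanins and each partner list, genes past the threshold (at most 6 a list) and those with the most counts were named, together with genes overlapping a member, neighbours of Cd82 past the threshold and the 5 genes most like Cd82. Other genes with values, such as Itga6, Itga3, Igsf8, Ext2 and Trp53i11, were chosen after their values were seen. Alternatives were DESeq2 size factors, library size alone, other filters, the replicate number as a block, the DESeq2 1.42.0 Wald test, limma-voom (limma 3.58.1), a threshold of 0.01, counts thinned to the smallest library, and each library left out. The procedure was tested on simulated data. Some list genes are counted in their lists and not reported here by name. Figures were drawn with matplotlib 3.10.9.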

Additional observations from a re-analysis of the deposited data

How the results depend on the processing

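The log2 fold change of Cd82 stayed between 0.68 and 0.75 and that of Cd53 between -0.57 and -0.53 over the 14 other fits, as a description of values that chose the members, and Cd82 kept position 1 in NFL libraries by coding length. The members called numbered 2 in each of the other settings except without control replicate 3 and without NFL replicate 1, where they were 3 through Cd151 (range 2 to 3 with 1 library left out). The genes called fell from 986 to 500 at an adjusted p of 0.01 and ranged from 508 (without NFL replicate 3) to 966 with 1 library left out, 616 without NFL replicate 2. Of the other tetraspanins 1 was called, Tspan13, but 0 with no filter on low counts, 0 with the DESeq2 Wald test, 0 at an adjusted p of 0.01, 0 with thinned counts and 0 with any 1 library left out. The partner genes called went from 14 to 8 at 0.01 and ranged from 8 to 16 with 1 library left out. Among neighbours and overlapping genes 0 was called, but 1 with the replicate block, 1 with limma-voom and 0 to 1 with 1 library left out (1 without control replicate 3). Where fewer libraries or a stricter threshold entered, that is part of the setting; otherwise the cause was not tested.

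The replicate numbers gave little sign of pairing: same-numbered libraries deviated together with r = 0.015, 0.010 and 0.005. Differently numbered libraries did so with r from -0.013 to 0.001, so the same-numbered values were the highest, but all were small. With the replicate block 1049 genes were called, 2 of them members, and apart from the neighbour above it changed no count by more than 1.5 times. Cd81 and Cd63 had few counts, and the sign of their change turned when NFL replicate 1 was left out (0.05 and 0.06). Cd9 and Tspan32 did not pass the filter on low counts and were not tested. The sign of Tspan3 and Tspan31, near 0, also varied between settings (-0.04 to 0.08 and -0.01 to 0.04). No change is shown for proteins, since RNA alone was measured.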
